A study of Mus musculus with 4 samples.

Results

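Gene-end peaks are the ATAC-seq peaks that lie where a gene stops: in the 3' untranslated region (3' UTR) of its last exon, or around its transcription termination site (TTS). ATAC-seq uses the Tn5 transposase to insert sequencing adapters into accessible DNA, so that a peak marks open chromatin. Members were the peaks whose deposited annotation begins with 3' UTR or TTS, and they numbered 2447 of the 120839 peaks in the 4 lists. They made up 1261 of the 53883 regions obtained when overlapping peaks of different lists were merged.

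The samples were 4 skeletal muscles of wild-type C57BL/6 mice. The animals were young adult males and sedentary. EDL, the extensor digitorum longus, and Quad, the quadriceps, consist mainly of fast, glycolytic fibers, the soleus (Sol) holds many slow, oxidative fibers, and the diaphragm (Dia) is a continuously active respiratory muscle. Each muscle had 1 library and 1 peak list, and each library is labeled as pooled. Without replicate lists, no p-value between muscles can be given, every difference describes these libraries, and intervals cover counting error only. In whole muscle, a change in the number of cells of a type and a change in openness per cell cannot be told apart.

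At the end of a gene, RNA polymerase II transcribes past the polyadenylation signal (AATAAA), the transcript is cleaved and the polymerase is released downstream. Open chromatin there can belong to the ending gene, to the promoter of a neighbor that starts nearby, to an enhancer, or to a site of CTCF, the zinc finger protein that anchors chromatin loops and domain borders. The annotation class itself names only the position.

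Short stretches of the genome (GRCm38, plus strand, from RefSeq) show what some TTS regions hold. The first 5 belong to the TTS regions called in all 4 lists with a match to the CTCF motif outside RefSeq exons, taken in order of their mean score percentile. Capitals mark the match. Each match was read from the highest-scored gene-end peak of its region, and peaks of other lists may lie beside it.
Csrp1, chr1:135753081-135753110: agacaggctGCCCTCTGCTGGccatgcagg
Map3k20, chr2:72390165-72390194: atgccctacGCCATCTGCTGGtgataaggc
Eef1b2, chr1:63181154-63181183: tcatgaaggCCAGCAGAGGGCagtgttagg
Thop1, chr10:81082440-81082469: tgaggggctGCCATCTGCTGGctctgtaca
Lag3, chr6:124903741-124903770: gagcggtgaCCACTAGGTGGCagtgtgttg
The next 5 lie behind genes of muscle fibers, muscle regulators and immediate early genes. Capitals mark an E-box (CAGCTG, the core bound by myogenic factors such as MyoD and myogenin), a MEF2 match or a GC box (GGGCGG, bound by Sp and Klf factors).
Tcap, chr11:98385400-98385429, E-box: ctgtgacctctgCAGCTGttgtgatgatcc
Mb, chr15:77015035-77015064, E-box: ccggaaggtcagCAGCTGctactgttggcc
Mef2a, chr7:67230298-67230327, MEF2: ggctcttcacCTAAATATAGaccctcatcc
Cebpd, chr16:15890412-15890441, MEF2: gagtgtagggCTAAAAATAAaaatgcaaat
Junb, chr8:84976669-84976698, GC box: gcgcactctgctGGGCGGggtcatgcttgc

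Gene ends were a small class of open chromatin in every muscle. They held 631 of 30136 peaks in EDL (2.09%, 95% Wilson interval 1.94% to 2.26%) and 910 of 40337 in Quad (2.26%, 2.12% to 2.41%). In Sol they held 518 of 28784 peaks (1.80%, 1.65% to 1.96%), and in Dia 388 of 21582 (1.80%, 1.63% to 1.98%). TTS peaks outnumbered 3' UTR peaks in each list, with 393 against 238 in EDL, 542 against 368 in Quad, 315 against 203 in Sol and 248 against 140 in Dia. The members belonged to 1171 genes, of which 1087 had 1 gene-end region, 83 had 2 and 1 had 3.

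If scores are scaled to 10 M tags (M, mega), the HOMER default, their steps put the depth between 78.1 M tags in Quad and 105 M in Sol. At these depths the median member held between 49 tags in Quad and 75 in Sol, and the lowest held 28. Promoters of 4 or 5 of the 5 muscle fiber markers (Acta1, Ckm, Ttn, Mb, Casq1) were called in each list. Both endothelial marker promoters (Pecam1, Cdh5) were called in EDL, Quad and Sol and neither in Dia, whereas leukocyte, fibro-adipogenic, satellite cell and adipocyte marker promoters were called in none. With any peak of a gene counted, both endothelial genes had 1 in Dia too, and the satellite cell gene had 1 in every list. Of 2 leukocyte genes, 2, 2, 1 and 0 had a peak in EDL, Quad, Sol and Dia. For 2 fibro-adipogenic genes the counts were 2, 2, 1 and 1, and the adipocyte gene had a peak in Dia only. The part of endothelial cells in the differences between muscles was not tested.

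The annotation class sets the position of a peak relative to the transcript end, so the positions given here are a description. The centers of TTS peaks lay a median of 488 bp past the annotated end, and 96.1% of them fell within 1000 bp downstream. Their count fell from 277 at 800 to 1000 bp downstream to 2 at 1000 to 1200 bp, which marks the edge of the class. The centers of 3' UTR peaks lay at a median of −1142 bp relative to the end, that is, upstream of it. Within the 3' UTR, their median position was 43.2% of the way from its start, with 28.8% of peaks in the first of 4 equal parts and 16.6% in the last. In the last 200 bp before the end, 31 peaks were classed as TTS, and their part in the lower last share was not tested. Of 1490 TTS peaks with a matched transcript, 1248 followed a protein-coding gene, 121 a long non-coding RNA, 106 a microRNA and 15 another type.

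**Figure D1:**
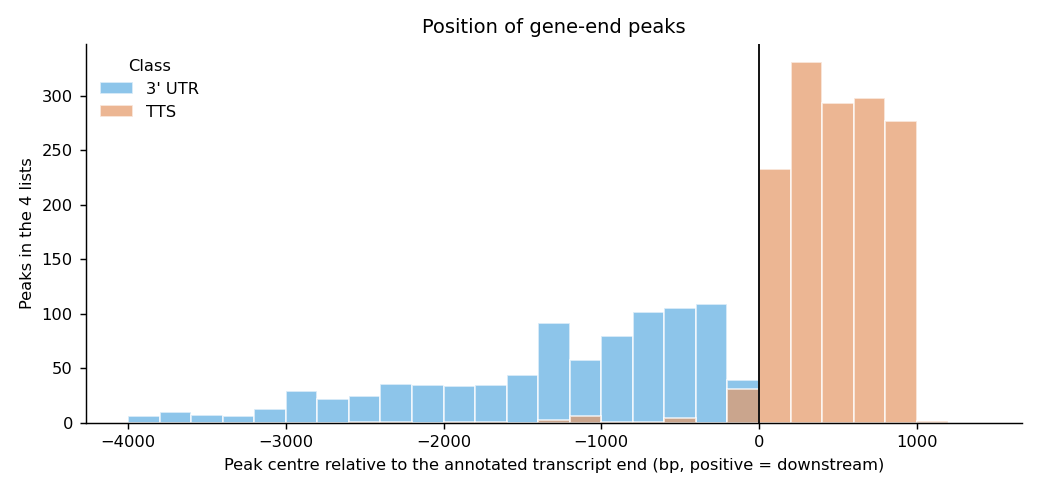
Number of 3' UTR and TTS peaks over the 4 lists (y axis) against the position of the peak center relative to the annotated transcript end in bp (x axis, 200-bp bins, downstream positive). TTS peaks fill the first 1000 bp downstream evenly after a lower first bin, while 3' UTR peaks spread over a long stretch upstream of the end. The annotation class sets these ranges.

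Many gene-end peaks were closer to the start of a different gene than to that of the gene that ends there. The nearest transcription start site (TSS) belonged to another gene for 48.6% of the members (46.6% to 50.5%), at 46.6% of TTS peaks and 51.6% of 3' UTR peaks. A TSS of any gene, the ending gene included, lay within 1 kb of 17.3% of TTS peaks (15.5% to 19.3%) but of 1.48% of 3' UTR peaks (0.885% to 2.47%). Own and neighboring starts were not separated in these shares, and 106 TTS peaks followed a microRNA, whose own start lies close. Peaks from 1 kb before to 100 bp after a TSS are annotated as promoters and so cannot be members. The shares therefore leave out gene ends at the promoter of a neighbor. TTS peaks also lay inside the body of another gene in 24.4% of cases, and 3' UTR peaks in 2.86%. Members within 1 kb of any TSS, own or neighboring, had a median score percentile of 65.6 and a median GC content of 58.8%, against 43.4 and 53.6% for the others.

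The score of a peak is its tag count scaled to library size, and its percentile within the list runs from 0 for the weakest to 100 for the strongest peak. TTS peaks were stronger than 3' UTR peaks in every list. Their median percentile was 51.6, 52.1, 52.8 and 45.3 for EDL, Quad, Sol and Dia. For 3' UTR peaks it was 39.6, 40.03, 42.7 and 32.7 for EDL, Quad, Sol and Dia. The 3' UTR values were within 4 percentile points of those of intron peaks, which were 39.6, 41.8, 39.3 and 34.1 for EDL, Quad, Sol and Dia. Promoter peaks stood far above both, with medians between 74.1 in Dia and 81.3 in Quad.

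**Figure D2:**
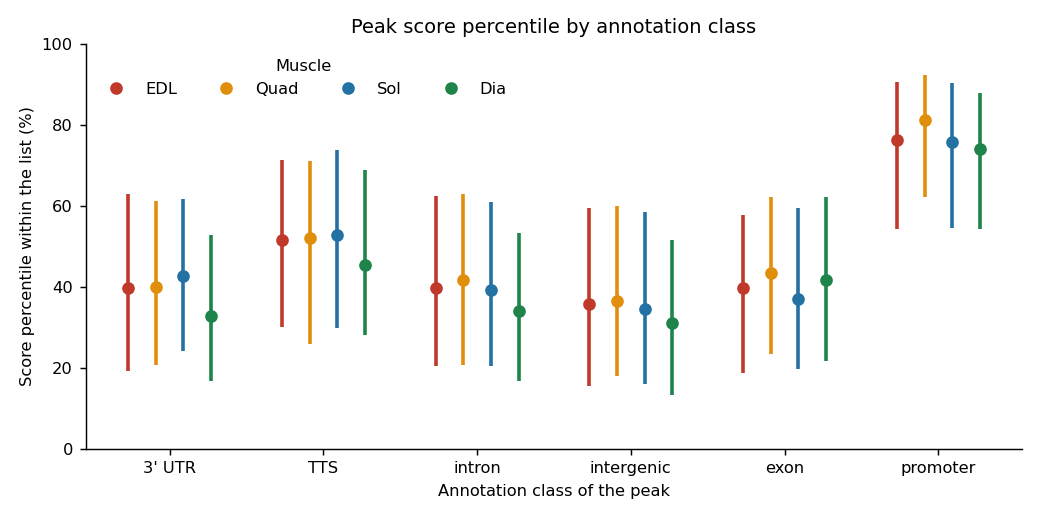
Score percentile within each list (y axis, %) for the annotation classes of peaks (x axis) in EDL, Quad, Sol and Dia. Points are medians and lines run from the lower to the upper quartile. TTS peaks lie above 3' UTR, intron and intergenic peaks in all 4 muscles, and promoters lie highest.

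Of the gene-end regions called in all 4 muscles, those with the highest mean percentile are described first, so their high level in each list follows from the choice. The strongest of them lay 479 bp behind Camta2, a calmodulin-binding transcription activator, inside the neighboring gene Spag7 and 432 bp from its TSS (chr11:70668793-70669101). Its percentile was 99.6, 99.7, 99.7 and 99.6 for EDL, Quad, Sol and Dia, at scores of 32.7, 34.4, 32.6 and 31.2. It was the highest-scored gene-end peak of each list.

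Several others of the 10 strongest shared regions also lay at the start of a neighbor. The region behind Fgf11, a fibroblast growth factor family gene, was 501 bp from the TSS of Chrnb1, the beta subunit of the muscle acetylcholine receptor, and its percentile was 98.1, 98.2, 98.2 and 98.3 for EDL, Quad, Sol and Dia. The region behind Slc39a1, a zinc transporter, was 387 bp from the TSS of Crtc2, a coactivator of CREB, at 96.6, 98.8, 97.7 and 94.1 in the same order. That behind Tmc4 was 185 bp from the TSS of Leng1, and that behind Zswim3 was 307 bp from the TSS of Zswim1. The one behind Hist1h1c, a linker histone gene, lay 278 bp past its own end and 1002 bp from its own TSS, at 96.0, 96.4, 96.7 and 96.0.

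Other strong members lay within a 3' UTR. In the 3' UTR of Lars2, the mitochondrial leucyl-tRNA synthetase, a peak stood at 99.5, 98.8, 96.8 and 99.6 for EDL, Quad, Sol and Dia. In that region 46.4% of the 42-base words occur elsewhere in the genome, and the part of such repeats in its score was not tested. Over all members, 2370 held only words found once, and 3 held more than 50% repeated words. The region at the end of Bcat2, the mitochondrial branched-chain aminotransferase, was at 99.1, 98.3, 98.7 and 96.9 for EDL, Quad, Sol and Dia, but only its EDL peak is annotated as 3' UTR, the others falling in the last exon or an intron of another transcript. In the 3' UTR of Bad, a proapoptotic Bcl-2 family member, the percentile was 95.4, 96.2, 94.5 and 93.8.

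Sharing was next compared between the lists. A member counted as called in all 4 muscles when it overlapped a peak of every other list by at least 1 bp. This held for 31.9% of members in EDL (28.3% to 35.6%), 22.1% in Quad (19.5% to 24.9%), 38.6% in Sol (34.5% to 42.9%) and 51.8% in Dia (46.8% to 56.7%). The shares ran opposite to list length, since the shared members numbered 200 in Sol and 201 in each other list. Members found in no other list were 14.9%, 36.6%, 18.0% and 17.8% for EDL, Quad, Sol and Dia, beside 16.2%, 38.5%, 22.6% and 16.7% of intron and 16.6%, 37.3%, 22.8% and 19.1% of intergenic peaks. Their median percentile was low, at 21.4, 23.4, 20.5 and 18.4 for EDL, Quad, Sol and Dia. Shared members were stronger, with medians of 69.0, 73.3, 67.6 and 56.8 in the same order.

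Gene-end peaks were shared far less often than promoters, and in EDL, Quad and Dia their difference from other peaks was not resolved. The difference from intron peaks was 2.77 percentage points in EDL (95% Newcombe interval −0.859 to 6.60), 2.19 in Quad (−0.464 to 5.07), 6.93 in Sol (2.73 to 11.3) and −0.715 in Dia (−5.84 to 4.38). The difference from intergenic peaks was −0.771 points in EDL (−4.42 to 3.09), −0.677 in Quad (−3.35 to 2.22), 4.60 in Sol (0.388 to 8.98) and 0.655 in Dia (−4.47 to 5.75). For all gene ends together, only Sol had intervals that excluded 0. Among the 20000 highest-scored peaks of a list, the intergenic interval of Sol included 0 (2.84, −2.28 to 8.13), that of Quad lay below 0 (−5.05, −9.73 to −0.146) and that of Dia above it (6.19, 0.974 to 11.5). The difference from promoters ran from −48.8 points in Quad to −31.0 in Dia, with all 4 intervals below 0. Taken alone, TTS peaks were shared more often than introns in Quad (4.83, 1.32 to 8.68) and Sol (9.9, 4.51 to 15.5). The TTS intervals of EDL and Dia included 0, as did every interval of 3' UTR peaks against introns. TTS exceeded 3' UTR peaks in Quad (6.52, 1.03 to 11.8) but was not resolved from them elsewhere. This split was not repeated within bins of score.

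The Sol difference of all gene ends did not hold among peaks of like strength. When the score percentile was cut into 4 equal bins that were compared separately and weighted equally, it was 0.749 points from introns (−2.96 to 4.58) and −4.29 from intergenic peaks (−8.02 to −0.452). On the same footing gene ends were shared less often than intergenic peaks in each other list, with differences of −6.63 points in EDL (−9.99 to −3.12), −6.20 in Quad (−8.78 to −3.44) and −6.38 in Dia (−11.0 to −2.28), and less often than introns in Dia (−4.32, −8.99 to −0.183). When only the upper 50% of each list was kept, sharing was counted anew among the kept peaks and strength was not matched. The difference from introns was then 10.8 points in EDL (5.29 to 16.7), 7.50 in Quad (3.47 to 12) and 10.2 in Dia (2.28 to 17.0). Against whole lists, gene-end sharing in bins 3 and 4 was 43.1% and 68.4% in EDL (introns 41.9% and 67.7%). It was 26.3% and 59.5% in Quad (introns 28.9% and 58.8%) and 78.7% and 83.9% in Dia (introns 72.6% and 85.7%).

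**Figure D3:**
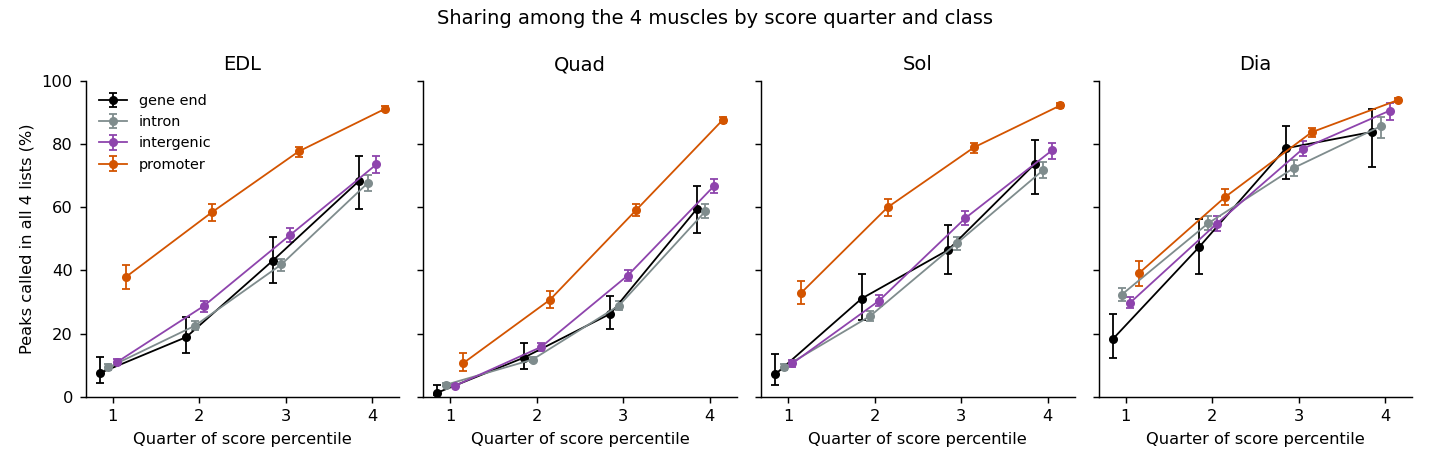
Share of peaks called in all 4 lists (y axis, %, with 95% Wilson intervals) by equal bins of the score percentile (x axis, 1 weakest to 4 strongest) for gene-end, intron, intergenic and promoter peaks, one panel per muscle. In EDL, sharing of gene-end peaks runs from 7.50% in the lowest bin to 68.4% in the highest, close to introns and below promoters.

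By merged region, 225 of 1261 gene-end regions were called in all 4 muscles (17.8%, 15.8% to 20.1%). This share was 15.9% for other regions outside promoters and 26.9% for all regions. Only 193 of the 225 held a gene-end peak in all 4 lists, and 32 included a peak of another class. Gene-end regions could hold a promoter peak, so comparisons with regions outside promoters were not like for like. The direction of the difference was not settled, since 15.9% also lay inside the interval. The largest other groups were 333 regions in Quad only (26.4%, against 26.9% of other regions outside promoters) and 142 in EDL and Quad only (11.3%, against 9.51% of other regions outside promoters). Regions in Sol and Dia only numbered 12 (0.952%, against 1.35%). Spearman's rho between the scores of a muscle pair over their common gene-end regions ran from 0.764 for Quad and Sol (404 regions) to 0.835 for EDL and Sol (370 regions). Over other regions outside promoters it ran from 0.677 for Quad and Dia to 0.776 for EDL and Quad. Over all regions it ran from 0.832 for EDL and Dia to 0.864 for EDL and Quad. These values are a description across regions of single libraries.

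In the regions called in all 4, the order of the muscles was close to that elsewhere. Both EDL and Quad stood above both Sol and Dia in percentile in 82 of 225 gene-end regions (36.4%, 30.4% to 42.9%), where the background over all regions called in all 4 was 34.9%. Sol and Dia stood above EDL and Quad in 10 (4.44%, 2.43% to 7.99%), with a background of 4.19%. With ranks taken among only the regions called in all 4, the counts were 47 (20.9%, 16.1% to 26.7%, background 16.6%) and 44 (19.6%, 14.9% to 25.2%, background 17.4%), and the imbalance between the directions was gone. Each background lay inside the interval of the gene-end share.

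The regions with the widest gaps named individual genes. The 3' UTR of Wnt11, a Wnt ligand, was at 82.4 in EDL and 76.9 in Quad, against 39.3 in Sol and 46.4 in Dia. The end of Stau2, a double-stranded RNA-binding protein, was at 62.5 and 65.8 against 37.0 and 29.6, and that of Zmiz2 at 80.3 and 77.5 against 53.7 and 48.7. In each of these the fast muscles did not overlap the others, which the choice by gap fixes.

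In the opposite direction, the gap in list percentile was widest at Ugcg, which encodes the enzyme of glucosylceramide synthesis. It was at 17.1 in EDL and 23.4 in Quad, against 43.8 in Sol and 40.5 in Dia. The end of Mb, which encodes myoglobin, the oxygen store of oxidative fibers, was at 77.6 in EDL and 76.9 in Quad, against 90.4 in Sol and 82.6 in Dia. Its E-box, printed above, lay outside the Dia peak. This region lay 503 bp past the gene and 7743 bp from its TSS. By rank among the regions called in all 4, the gap was 14.4 points at Ugcg and 16.1 at Mb, and wider at Rgp1 (19.96), Atg9b (19.2) and Cbfa2t3 (17.5). By that rank the gap in the fast direction was 16.7 at Wnt11 and 19.9 at a region behind Lag3. The regions were selected for their gap in list percentile, so the values are a description.

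The 5 strongest of the regions called in EDL and Quad alone lay at Exoc3l4, Tcap, Junb, Fem1a and Ankrd9. The end of Tcap, the titin cap protein of the Z-disc, was at 91.5 in EDL and 88.3 in Quad, and the nearest peak of Sol or Dia lay 7250 bp away. The end of Junb, an AP-1 subunit, was at 89.0 in EDL and 92.4 in Quad, with the nearest peak of Sol or Dia 3300 bp away. The 3' UTR of Exoc3l4 was at 88.8 in EDL and 95.2 in Quad. Fem1a was at 91.3 and 88.7, with a Sol peak 1529 bp away, and Ankrd9 at 85.7 and 88.3, with a Dia promoter peak 2586 bp away. The absence of a call in Sol or Dia does not show that the signal was absent.

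Calls in Sol and Dia alone were fewer, and some had an EDL peak close by. The region behind Ehd2, a membrane-trafficking ATPase, was at 89.2 in Sol and 84.8 in Dia, but an EDL peak at the same gene end lay only 43 bp away. Those behind Snord118 and Rnu11, both small RNA genes, each held a Sol or Dia peak that is itself annotated as promoter. Promoter peaks of EDL lay 26 bp and 17 bp from these regions. By contrast, the end of Atg13, an autophagy initiation factor, was at 85.1 in Sol and 21.7 in Dia, and the nearest peak of the other lists lay 23386 bp away.

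Most gene-end peaks of a single list had no peak of another list within 500 bp. Such a neighbor was present for 18 of 94 in EDL (19.1%), 22 of 333 in Quad (6.61%), 9 of 93 in Sol (9.68%) and 8 of 69 in Dia (11.6%). The strongest gene-end peak of Dia alone, behind Pheta2 at 95.3, was 46 bp from an EDL promoter peak. The strongest of Quad alone, behind Axl, a receptor tyrosine kinase gene, was at 88.0 and 893 bp from an EDL promoter peak, and the next, behind Slc23a3 at 86.5, was 18 bp from a Dia peak. The strongest of EDL alone, in the 3' UTR of Acvrl1, an endothelial BMP receptor gene, was at 90.5 and lay 1398 bp from the nearest peak of another list, in Dia. That of Sol alone, behind Bcl6, a transcriptional repressor, was at 72.7 with an EDL peak 66 bp away.

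**Figure D4:**
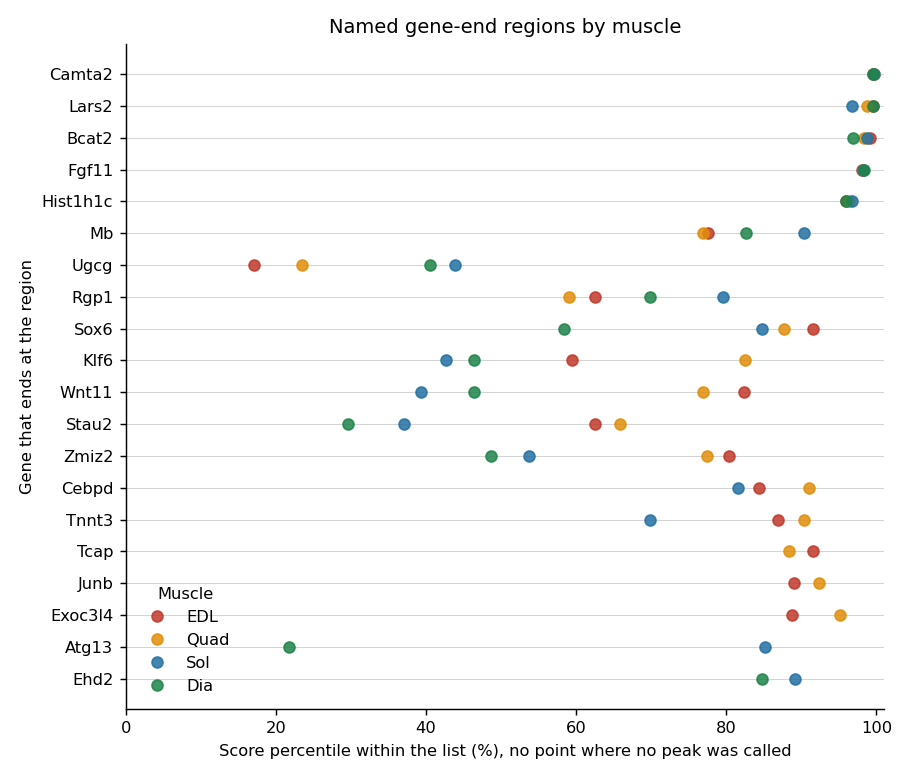
Score percentile within the list (x axis, %) of 20 named gene-end regions (y axis, by the gene that ends there) in the 4 muscles, with no point where no peak was called. Camta2, Lars2, Bcat2, Fgf11 and Hist1h1c lie above 95 in every muscle, whereas Tcap, Junb and Exoc3l4 have points for EDL and Quad only.

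Contractile genes were examined by list. Of 34 sarcomere and calcium handling genes with any peak, EDL had a gene-end peak at 2 (5.88%), Quad at 3 (8.82%), Sol at 2 (5.88%) and Dia at 1 (2.94%). Over all 17219 genes with a peak, the share with a gene-end peak was 3.56% in the EDL list, 5.01% in the Quad list, 2.94% in the Sol list and 2.2% in the Dia list. The 3 genes of this list, which does not hold Tcap, were Mb, Tnnt3 and Myom1. Tnnt3, the fast troponin T, was at 86.9 in EDL, 90.3 in Quad and 69.9 in Sol and was not called in Dia. Myom1, the M-band protein myomesin, was called in Quad only, at 38.2.

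Muscle transcription regulators had gene-end peaks at 5 of 31 genes. In EDL there were 4 (12.9%), in Quad 3 (9.68%), in Sol 5 (16.1%) and in Dia 2 (6.45%), beside the shares over all genes given above. The 3' UTR of Sox6, a repressor of slow fiber genes, was at 91.5, 87.7, 84.8 and 58.4 for EDL, Quad, Sol and Dia. The peak lay 328509 bp from the Sox6 TSS, which is still the nearest. The end of Mef2a, which encodes a MEF2 factor and holds the MEF2 match printed above, was weak, at 18.8, 18.0, 44.8 and 11.4 for EDL, Quad, Sol and Dia. The match lay outside the Dia peak. Myog, the myogenic factor myogenin, was called at 51.6 in EDL and 49.99 in Sol, and the calcineurin target Nfatc2 at 18.8 in EDL, 30.2 in Quad and 19.0 in Sol. Nfatc1 was called in Sol alone, at 51.0.

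Of 29 immediate early and stress genes, 4 had a gene-end peak in EDL (13.8%) and 4 in Quad (13.8%), 1 in Sol and 1 in Dia (3.45% each). The shares over all genes were 3.56%, 5.01%, 2.94% and 2.2% in that order. Klf6, a Krüppel-like factor, was the only 1 of them called in all 4, at 59.5, 82.5, 42.7 and 46.4 for EDL, Quad, Sol and Dia. Behind Cebpd, a C/EBP factor, a TTS peak was called in EDL at 84.3, and the overlapping Quad and Sol peaks, at 91.0 and 81.6, are annotated to an intron of another transcript. Klf15 was called in EDL only, at 37.0, and Klf10 and Per1 in Quad only, at 20.8 and 60.1.

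Histone genes, which are short and end with a stem loop in place of a poly(A) tail, had gene-end peaks at 7 of 48 genes (14.6%, against 6.80% of all genes with a peak). In each list 6 were called (12.5%). Those called in all 4 were Hist1h1b, Hist1h1c, Hist1h1d, Hist1h4h and Hist2h4, and at Hist1h4h the percentile was 83.0, 75.2, 73.7 and 65.6 for EDL, Quad, Sol and Dia. Ribosomal protein genes had gene-end peaks at 2 of 74, zinc finger genes at 12 of 348 and small nucleolar RNA genes at 2 of 28. MicroRNA genes had them at 49 of 539 (9.09%), where the annotated gene is the short hairpin, so that a TTS peak lies close to its start too. The peak behind Mir6976 stood at 97.7, 96.5, 97.5 and 95.7 for EDL, Quad, Sol and Dia, 856 bp past the hairpin and inside another gene.

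A few genes held more than 1 gene-end region. Mkl2, a coactivator of serum response factor, had 3 in its 3' UTR annotation, 2 of them in one transcript and the other in a transcript that ends farther upstream, of which 1 was called in EDL, Quad and Sol (61.8, 46.5 and 20.5) and the others in Quad only. Copz2, Lag3 and Map3k20 each had 2 TTS regions called in all 4 muscles. At Lag3, an immune checkpoint receptor gene, the region 627 bp past the end, with the CTCF match printed above, was at 76.3, 80.4, 56.1 and 49.7 for EDL, Quad, Sol and Dia. The EDL peak starts inside this match and holds only a part of it. The region 30 bp past its end was at 69.6, 82.9, 42.7 and 56.0.

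Motif matches were counted on both strands in 9 motifs, and each list's gene-end peaks were set against its peaks outside promoters and gene ends. These 36 comparisons were not adjusted for their number. The same motifs were also compared in each list for TTS and for 3' UTR peaks taken alone, again without adjustment. A CTCF match was held by 7.29% of gene-end peaks in EDL against 3.33% of the comparison peaks, a difference of 3.96 points (2.16 to 6.27). The difference was 2.72 in Quad (1.42 to 4.39), 2.02 in Sol (0.501 to 4.20) and 4.24 in Dia (1.91 to 7.38). Over the 4 lists 6.13% of gene-end peaks held a match, against 2.50% of intron, 3.65% of intergenic, 0.933% of promoter and 2.41% of all peaks. Among the regions whose matches are printed above, that behind Csrp1, a LIM-domain protein gene, was at 74.9 in EDL, 88.5 in Quad, 85.9 in Sol and, lowest, 68.7 in Dia. That behind Map3k20, a stress kinase gene, was at 83.0 in EDL, 78.4 in Quad and 77.0 in Sol but 56.0 in Dia, and that behind Thop1, an oligopeptidase gene, at 80.0, 75.8 and 69.9 but 47.6 in Dia. The Map3k20 match lay just outside the Sol peak. The one behind Eef1b2, a translation elongation factor gene, was at 67.8 in EDL, 80.8 in Quad, 69.3 in Sol and again lowest, at 67.5, in Dia. Peaks with and without a match differed in sharing by less than their intervals could resolve in each list, for example 39.1% against 31.3% in EDL (difference 7.85 points, −5.46 to 22.7).

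The GC box was also more frequent at gene ends, by 4.73 points in EDL (1.97 to 7.87), 3.23 in Quad (1.10 to 5.66), 4.10 in Sol (1.09 to 7.60) and 7.68 in Dia (3.63 to 12.2). This excess was that of TTS peaks, which taken alone differed by 9.05, 6.43, 8.26 and 13.3 points in the same order, with every interval above 0. For 3' UTR peaks the differences were −2.41, −1.49, −2.35 and −2.26, and every interval included 0. With every list cut to its 20000 highest-scored peaks, the intervals of Quad (2.17, −1.38 to 6.25) and Sol (3.63, −0.207 to 8.08) included 0. Of TTS peaks, 21.1% held a GC box over the 4 lists, against 10.3% of 3' UTR peaks, 28.5% of all peaks and 63.7% of promoters. The share was 10.8% for intron and 29.8% for exon peaks. Gene-end peaks with a GC box were called in all 4 muscles more often than those without, by 27.5 points in EDL (17.2 to 37.3), 27.4 in Quad (18.5 to 36.4), 22.7 in Sol (11.2 to 33.4) and 18.7 in Dia (7.13 to 29.1). This contrast was not matched for score, GC content or distance to a TSS, and it was not made for intron or intergenic peaks.

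The NFAT core (TGGAAA) was less frequent at gene ends, with differences of −4.40 points in EDL (−7.18 to −1.22), −4.41 in Quad (−6.61 to −1.92) and −5.15 in Dia (−8.73 to −0.949). The Sol interval included 0, as did that of Quad among its 20000 highest-scored peaks (−1.48, −4.83 to 2.45). Taken alone, TTS peaks had NFAT intervals below 0 in EDL, Quad and Dia. For 3' UTR peaks the differences were −2.02, −3.37, −3.90 and −3.90 for EDL, Quad, Sol and Dia, and every interval included 0. The AP-1 site (TGAGTCA) was less frequent in Dia (−3.87, −5.93 to −0.967) but not resolved elsewhere. For the E-box, MEF2, the nuclear receptor core site (AAGGTCA), the cAMP response element (TGACGTCA) and AATAAA, every interval for all gene-end peaks of a list included 0. Taken alone, TTS peaks held MEF2 less often in EDL (−2.59, −4.00 to −0.304), Sol (−2.86, −4.34 to −0.268) and Dia (−3.16, −4.22 to −0.678). In Quad the E-box was less frequent in TTS peaks (−3.74, −6.78 to −0.242) and more frequent in 3' UTR peaks (5.09, 0.784 to 9.86). The polyadenylation signal itself occurred in 9.81% of gene-end peaks and 8.37% of all peaks. Over all peaks of the 4 lists, the shares holding the other motifs were 19.9% for the E-box, 3.83% for MEF2, 17.4% for NFAT, 7.07% for AP-1, 4.48% for the nuclear receptor core site and 1.44% for the cAMP response element.

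**Figure D5:**
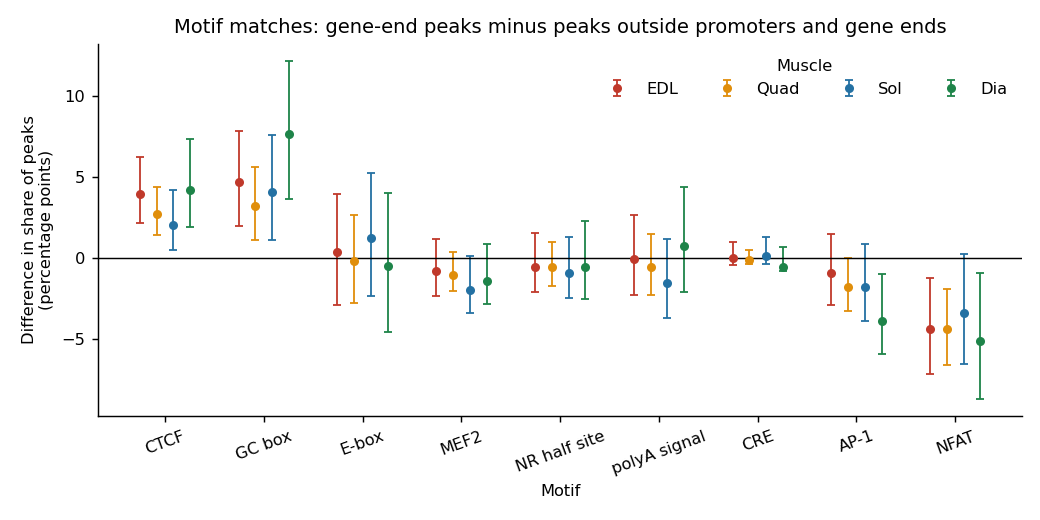
Difference in the share of peaks holding each motif (y axis, percentage points, gene-end peaks minus peaks outside promoters and gene ends, with 95% Newcombe intervals) for 9 motifs (x axis) in the 4 muscles. CTCF and GC box lie above 0 in all 4 muscles, and NFAT lies below 0 in EDL, Quad and Dia.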

How the data were processed

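The authors pulverized frozen muscle, transposed nuclei, sequenced 42-bp read pairs, aligned them with Bowtie2 to mm10 and called peaks in each library with HOMER, keeping at most 1 tag per position. The deposited peak lists give positions, the annotation and a score, which is the authors' signal, a tag count scaled to library size. The deposited focus ratio is a fraction, and the deposited distance to the TSS is in bp. In that annotation a promoter reaches 1 kb before and 100 bp after a TSS.

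Here members were matched to RefSeq transcripts of GRCm38.p6 (13 members unmatched) with Python 3.11.15, pandas 2.3.3 and numpy 2.4.6. Scores were ranked within each list. Merging joined peaks that overlapped by at least 1 bp; chained overlaps make regions called in all 4 more numerous than directly overlapping members. Shares carry Wilson and differences Newcombe intervals at the 95% level. Functions were tested on simulated peaks. Named genes were the strongest members per list and class, the strongest shared, single-list and pair-only regions, those with the widest gaps, the genes with most regions, and gene-list members. The members, lists and motifs were chosen with earlier results of these data known. How many samples were combined is not stated list by list, and the Tn5 offset is not given in the sources used here.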

Additional observations from a re-analysis of the deposited data

How the results depend on the processing

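No paired analysis was possible because each muscle has 1 list and no replicate number ties the samples. Leaving out a replicate was not possible for the same reason. Of 218 recomputed values 155 were counted as unchanged. A share or median counted so when it stayed within the interval of the value reported. A difference counted so when its interval excluded 0 on the same side in both settings, or included 0 in both. Where both included 0 the sign could change, as for EDL against introns (2.77, and −0.848 within bins of score). The cause of the changes in the other values was not tested beyond how each setting is built. All 4 CTCF differences kept intervals above 0 in a 200-bp window and among the 20000 highest-scored peaks of each list.

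Among those 20000 peaks, sharing by all 4 lists was 37.0% in EDL, 36.3% in Quad and 43.6% in Dia, the share of members found nowhere else 19.9% in Quad and 27.4% in Dia, the median percentile 42.4 in EDL, 39.1 in Quad and 42.8 in Sol, and the Quad share of gene ends 2.11%. The sharing difference from intergenic peaks became −5.05 points in Quad with an interval below 0, 2.84 in Sol with an interval that included 0, and 6.19 in Dia with an interval above 0. Of the motifs, the GC box difference fell to 2.17 points in Quad and 3.63 in Sol and NFAT to −1.48 in Quad, all with intervals that included 0, whereas MEF2 in Sol reached −2.68 with an interval below 0.

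In the upper 50% of each list, sharing was 37.9% in EDL, 25.4% in Quad and 73.5% in Dia, members found nowhere else 7.51% in EDL, 14.8% in Sol and 7.95% in Dia, the median percentile 41.5 in EDL, 39.6 in Quad and 39.8 in Sol, and gene ends 2.11% of Quad and 1.40% of Dia. The nearest TSS then belonged to another gene at 52.6% of EDL members. The difference from introns was 10.8 points in EDL and 7.50 in Quad, and it reversed to 10.2 in Dia, while that from intergenic peaks in Sol was 5.07 with an interval that included 0.

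Requiring 50% overlap of both peaks gave sharing of 21.4%, 13.6%, 26.3% and 35.6% for EDL, Quad, Sol and Dia, with 21.9%, 44.1%, 25.7% and 23.2% found nowhere else. Accepting peaks within 500 bp gave 38.2%, 26.4%, 45.4% and 59.3%, with 12% of EDL members found nowhere else and a difference of 4.38 points from EDL introns. Within 4 equal bins of score percentile, the difference from intergenic peaks was −6.63, −6.20, −4.29 and −6.38 for EDL, Quad, Sol and Dia, a reversal in Sol and Dia, and that from introns 0.749 in Sol and −4.32 in Dia. Leaving out non-coding hosts gave gene-end shares of 1.88%, 2.03%, 1.56% and 1.58%, and leaving out members within 1 kb of a TSS 1.85%, 2.05%, 1.58% and 1.54%, with 3.58 points from intergenic peaks in Sol. The ranks among regions called in all 4, chosen after the data were seen, gave 47 regions with EDL and Quad above and 44 with Sol and Dia above. An uncalled peak does not show that the chromatin was closed, and the list with the lowest inferred depth, Quad at 78.1 M tags, was the longest.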
